A study of Mus musculus with 19 samples.

Results

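Cholesterol is built from acetyl-CoA by a chain of enzymes, and the 8 genes described here are a part of that chain and its control. They are 6 of the synthesis enzymes (Hmgcs1, Idi1, Fdps, Fdft1, Sqle and Lss) and the regulators Srebf2 and Insig1. They were chosen by name as genes of cholesterol synthesis and uptake, with earlier results of these data known. None of the 8 is itself an uptake receptor, so uptake was described from a separate list. All 8 were present among the 13549 gene symbols of the embryonic liver table and among the 17606 gene identifiers of the tumour files, and all 8 passed the filters on low values (13316 and 12829 genes tested).

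The measurements are RNA sequencing of 9 mouse livers at embryonic day 18.5 and of 10 tumours of FL8, 1 mouse cell line. The fusion embryos came from crossing Rosa26 LSL-DNAJB1-PKA-GFP mice with Alb-Cre mice, so that the kinase fusion of human fibrolamellar carcinoma and a GFP reporter are switched on in cells that use the Albumin promoter, from mid-gestation. The 5 control livers (numbered 1 to 5) and 4 fusion livers (numbered 6 to 9) shared age and tissue, and the labels do not say whether controls carry Cre or the unrecombined transgene, nor which litters or strain they came from. Sex, read from Xist RNA, was not balanced between the genotypes. Control 1 and 2 and fusion 6, 7 and 8 read as female, and control 3, 4 and 5 and fusion 9 as male. FL8 cells, set in gelatin, were implanted subcutaneously in NSG mice, which lack a working adaptive immune system. When tumours averaged 75 mm3 the mice were randomised to oral palbociclib, a CDK4/6 inhibitor, at 75 mg/kg on 3 days with 4 days off (5 tumours), or to its carrier (5 tumours, called vehicle). Whether FL8 carries the fusion is not given in the labels. The series text names a saline control and the sample labels a methocel carrier, and the sample labels were followed. Since nothing says that samples of a group came from separate litters or cages, p-values measure the spread between these samples.

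In liver, cholesterol synthesis feeds membranes, lipoproteins and bile acids, and hepatocytes also take cholesterol up from blood. When membrane sterol falls, the precursor encoded by Srebf2 is carried by SCAP from the endoplasmic reticulum to the Golgi, cut by the Mbtps1 and Mbtps2 proteases, and its released part enters the nucleus and switches on nearly every gene of the chain. Insig1 protein holds SCAP back when sterol is plentiful, and its gene is itself a target of the factor, as is Srebf2.

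The sites through which the factor acts, sterol regulatory elements, lie close to gene starts and commonly beside CCAAT boxes bound by NF-Y, so the windows that hold such letters are shown. RefSeq promoters (build GRCm38.p6, 250 bases before to 50 after a gene's start) were at hand for 5 of the 8 genes: Hmgcs1, Srebf2, Insig1, Lss and Idi1, and not for Sqle, Fdps and Fdft1. Capitals mark the element TCACNCCAC with at most 1 mismatch outside N, and CCAAT, each on either strand (ATTGG is CCAAT read on the other strand). All 3 windows are on the plus strand, 5′ to 3′.
Hmgcs1, chr13:119690101-119690350: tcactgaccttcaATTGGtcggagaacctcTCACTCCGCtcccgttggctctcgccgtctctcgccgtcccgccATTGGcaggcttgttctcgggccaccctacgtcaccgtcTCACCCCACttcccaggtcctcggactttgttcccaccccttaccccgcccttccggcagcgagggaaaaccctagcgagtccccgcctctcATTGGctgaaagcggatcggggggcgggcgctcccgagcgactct
Srebf2, chr15:82147062-82147161: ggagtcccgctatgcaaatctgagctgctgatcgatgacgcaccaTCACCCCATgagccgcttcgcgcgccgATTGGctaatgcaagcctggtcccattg
Insig1, chr5:28071358-28071411: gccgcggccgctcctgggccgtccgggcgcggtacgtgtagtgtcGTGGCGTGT

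Hmgcs1 held the exact element at position -137 from its start and a 1-mismatch match at -220. Srebf2 held a 1-mismatch match at -162 and Insig1 a 1-mismatch match on the other strand at -9. Positions are counted from the RefSeq start, whereas the gene coordinates given below are those of the GENCODE annotation. The GENCODE gene of Insig1 begins at 28071363, so its match lies inside that gene. For comparison, 32851 RefSeq promoters of the same length were counted, with 1 chromosome left out. The exact element was found in 1 of the 5 promoters and in 1.24% of all those counted. A match with at most 1 mismatch was found in 3 of 5 and in 24.2%. CCAAT was found in 5 of 5 promoters (37.4% of all) and the Sp1 box GGGCGG in 5 of 5 (35.7%). The full cyclic AMP response element TGACGTCA, the site of a factor that protein kinase A phosphorylates, was in none of the 5 (1.79% of all), and its shorter core TGACG in 3 (20.8%). The core lies within the full element, and a match is a description of letters, not a site shown to be used.

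Library depth was 7.66 to 23.1 M counts (M for 1000000) in control livers and 13.5 to 45.6 M in fusion livers. Recovered reads were 2.96 to 33.9 M in vehicle tumours, where vehicle 5 was the shallowest, and 24.9 to 43.1 M in palbociclib tumours. The fusion is made from Prkaca and Dnajb1 sequence: mean Prkaca was 42.7 ± 5.73 CPM (SD, n = 5) in control and 73 ± 28.7 (n = 4) in fusion livers, a log2 fold change of 0.78 (edgeR quasi-likelihood test, adjusted p = 0.0379). Mean Dnajb1 was 46.9 ± 4.78 CPM in control and 63.0 ± 9.28 in fusion livers, a log2 fold change of 0.42 (edgeR adjusted p = 0.0493). Control and fusion values did not overlap for Prkaca and did for Dnajb1. Hepatocyte markers (Alb, Ttr and 6 others) summed to 120500 to 156494 CPM in control livers, 83516 to 132652 CPM in fusion livers and 34636 to 107458 CPM in the tumours. In vehicle 1, 46.6% of reads came from mitochondrial genes, against 1.24 to 6.47% in the other 9 tumours, and this library also had the lowest hepatocyte marker sum and the highest macrophage marker sum (354 CPM, against 6.09 to 60.5). Livers split by the share of counts from ribosomal protein genes into 4 with 9.68 to 10.1% (control 1 and 2, fusion 8 and 9) and 5 with 6.16 to 7.85% (control 3, 4 and 5, fusion 6 and 7). Tumour and liver tables were normalised separately and no test was made across them.

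Across control livers, the order of the 8 genes per kilobase of principal transcript ran from Fdps to Idi1. On this scale of CPM per kb, Fdps stood at 172 ± 30.2 (SD, n = 5), Hmgcs1 at 112 ± 12.3, Fdft1 at 72.8 ± 13.8, Insig1 at 66.3 ± 4.62, Sqle at 37.5 ± 4.92, Lss at 16.0 ± 3.12, Srebf2 at 11.4 ± 1.24 and Idi1 at 1.39 ± 0.70. The ranges of Fdft1 and Insig1 overlapped, as did those of Lss and Srebf2, so their order is not settled by these livers. In vehicle tumours Fdps (112 ± 48.4) and Hmgcs1 (106 ± 54.9) again came first and Idi1 (15.7 ± 6.64, n = 5) last, with overlap between most neighbours. The order depends on the length used: per kilobase of all annotated exons, Hmgcs1 came first in all 4 groups and Fdps ranked between 2 and 5.

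The fusion comparison asks how expressing the kinase fusion from mid-gestation changes the liver transcriptome before birth. None of the 8 cholesterol genes passed the test in fusion against control livers, where 1704 of 13316 genes did (12.8%; edgeR quasi-likelihood test, Benjamini-Hochberg adjusted p under 0.05 over all genes). The nearest was Fdps, farnesyl diphosphate synthase, with a log2 fold change of 0.46 ± 0.15 (SE) and adjusted p = 0.0693, and it was the 1 gene of the 8 with an unadjusted p under 0.05 in edgeR, beside 29.3% of all genes. Of the 8 log2 fold changes 7 were above 0, with a median of 0.26 against -0.01 over all genes tested, of which 48.3% were above 0. Control and fusion values overlapped for each of the 8, while they did not overlap for 16.5% of all genes. In whole tissue, fewer cells that express a gene and less RNA per cell cannot be told apart.

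Hmgcs1 (chr13:119690379-119708260, plus strand, mm10) encodes the cytosolic synthase that makes HMG-CoA. It stood at 422, 429, 335, 405 and 351 CPM in control livers 1 to 5 and at 473, 413, 371 and 516 CPM in fusion livers 6 to 9. Fusion 6 and 9 lay above every control and fusion 8 below 3 of them, and the log2 fold change was 0.19 ± 0.14 (SE; adjusted p = 0.408).

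Idi1 (chr13:8885501-8892451, plus strand), the isomerase that supplies the reactive isoprene unit, was the least abundant and the most variable of the 8. It stood at 1.37, 2.93, 4.23, 6.25 and 6.28 CPM in control livers 1 to 5 and at 17.5, 10.8, 1.23 and 4.17 CPM in fusion livers 6 to 9, from 16 to 837 counts. Fusion 6 and 7 were the highest of all livers and fusion 8 the lowest, so the log2 fold change of 1.00 carried an SE of 0.60 (adjusted p = 0.289).

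Fdps (chr3:89093588-89101959, minus strand) joins isoprene units into farnesyl diphosphate, the branch point to sterols and to protein prenylation. Its control values were 206, 275, 199.6, 289 and 217 CPM and its fusion values 340.3, 361, 321 and 280.4 CPM. Of the 4 fusion livers 3 exceeded every control, and fusion 9 lay just under control 4. The means were 237 ± 41.7 (SD, n = 5) and 326 ± 34.3 CPM (n = 4).

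Fdft1 (chr14:63145150-63179578, minus strand) is squalene synthase, the first enzyme of the sterol branch alone. It was measured at 324, 326, 235, 241 and 221 CPM in control and 209, 232, 268 and 319.9 CPM in fusion livers. High and low values occurred in both genotypes, and its log2 fold change, -0.07 ± 0.17 (SE; adjusted p = 0.836), was the single one below 0.

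Sqle (chr15:59315077-59331192, plus strand), the oxygenase that forms squalene epoxide and a known control point, stood at 107, 121, 84.8, 109 and 95.9 CPM in control and 138, 111, 112 and 137 CPM in fusion livers. Every fusion liver exceeded 4 of the 5 controls and control 2 lay among them, with a log2 fold change of 0.27 ± 0.13 (SE; adjusted p = 0.202). Lss (chr10:76531588-76557138, plus strand), which folds the epoxide into lanosterol, stood at 59.0, 62.6, 73, 90.2 and 89.3 CPM in control and 138, 107, 52.7 and 59.2 CPM in fusion livers. As for Idi1, fusion 6 and 7 were the highest and fusion 8 the lowest of all 9 livers (log2 fold change 0.26 ± 0.27, adjusted p = 0.567).

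Among the regulators, Srebf2 (chr15:82147181-82205379, plus strand) stood at 58.7, 48.1, 58.9, 58.8 and 65.7 CPM in control and 84.1, 71.4, 35.4 and 44.6 CPM in fusion livers. Fusion livers lay on either side of all 5 controls, and the log2 fold change was 0.02 ± 0.22 (SE; adjusted p = 0.963). Insig1 (chr5:28071363-28078662, plus strand) stood at 162, 193, 175, 175 and 189 CPM in control and 167, 212, 258 and 221 CPM in fusion livers. Fusion 7, 8 and 9 exceeded every control and fusion 6 did not (log2 fold change 0.26 ± 0.14, adjusted p = 0.235).

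**Figure D1:**
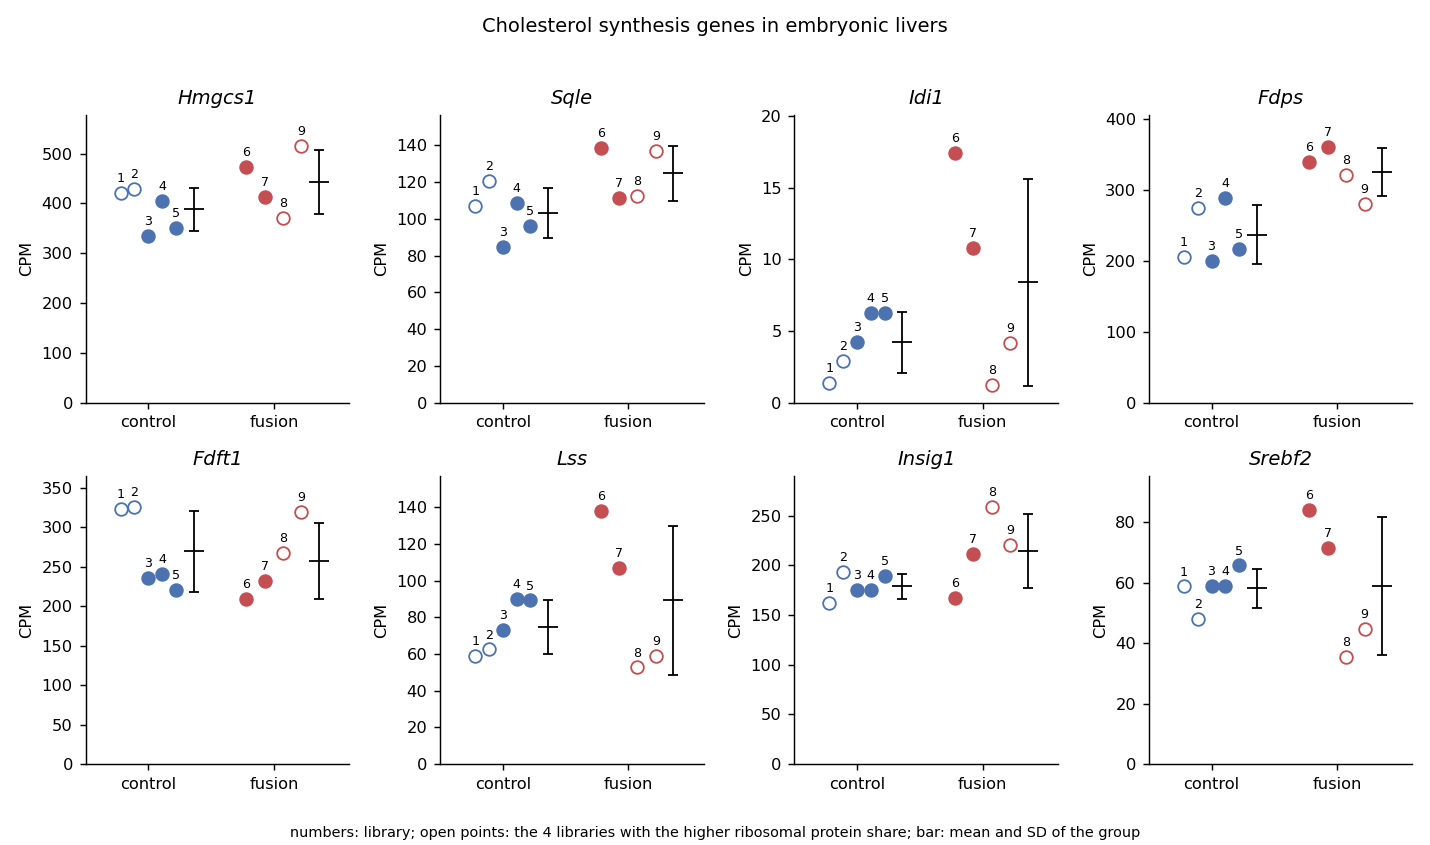
Levels of the 8 genes in embryonic livers, in CPM after TMM scaling, with 1 point per library (5 control, 4 fusion), the library number above it, and the group mean with SD beside the points. Open points are the 4 livers with the higher share of ribosomal protein counts. Filled and open points separate for Idi1, Fdft1, Lss and Srebf2, whereas control and fusion overlap in every panel.

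For 4 of the 8 genes, livers with the higher and the lower ribosomal protein share did not overlap. Idi1 (1.23 to 4.17 CPM in the 4 livers with the higher share, 4.23 to 17.5 in the other 5), Lss (52.7 to 62.6 and 73 to 138) and Srebf2 (35.4 to 58.7 and 58.8 to 84.1) were lower in the high-share set. Fdft1 was higher in it (268 to 326 CPM, against 209 to 241). The gaps for Idi1 and Srebf2 were narrow, and 20.3% of all genes also had no overlap between the sets.

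Within the 5 low-share livers, Idi1 was higher in fusion by 1.36 ± 0.23 on the log2 scale (SE; edgeR adjusted p = 0.00337), Fdps by 0.58 ± 0.16 (adjusted p = 0.0300) and Lss by 0.55 ± 0.14 (adjusted p = 0.0261). These 3 of 8 stand beside 21.8% of all genes called in that set, where the 3 controls were male and the 2 fusion livers were female. Sex and genotype cannot be told apart in that set. Within the 4 high-share livers none of the 8 passed, beside 20% of all genes. Insig1 and Srebf2 had an unadjusted p under 0.05 in edgeR, a looser threshold that at least those 20% of all genes also met. The exact share at that looser threshold was not counted, so nothing is read from these 2. There Insig1 was nearest at 0.44 ± 0.15 (adjusted p = 0.0661), Lss stood at -0.11 ± 0.14 and Srebf2 at -0.41 ± 0.16 (adjusted p = 0.0962). The difference of the genotype effect between the sets was -0.77 ± 0.20 for Srebf2 (adjusted p = 0.112) and -0.66 ± 0.21 for Lss (adjusted p = 0.157). Neither passed, as in nearly all genes, of which 0.188% did.

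With the ribosomal protein share as a covariate, Idi1 (0.80, adjusted p = 0.0279) and Fdps (0.45, adjusted p = 0.0158) were called, beside 33.3% of all genes, and the same 2 with the set as a covariate (1.12, adjusted p = 0.0113, and 0.46, adjusted p = 0.0162), beside 32.6%. DESeq2 called Fdps alone (0.47, adjusted p = 0.0212), beside 18.4%. In edgeR, Fdps was not called with sex as a covariate (0.41, adjusted p = 0.137), where 1284 of 13316 genes were. Nor was it called with the erythroid markers as a covariate (0.42, adjusted p = 0.124), where 1064 were. When each liver was left out in turn, its log2 fold change lay between 0.41 and 0.54. Fdps was called in none of those fits (edgeR adjusted p from 0.0529 to 0.166).

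Over the 9 livers, the correlation between the log2 levels of 2 of these genes ranged from 0.95 (Idi1 and Lss) to -0.81 (Fdft1 and Lss), with a median of 0.20 over the 28 combinations, 20 of them above 0. The livers differ in depth and in ribosomal protein share, which the points of each correlation have in common. The genes most like the average of the 8 among 10020 compared were Naa15, Snrnp40, Psmd1, Gtpbp4 and Mphosph10 (Pearson's r from 0.95 to 0.92 over 9 livers), none of which is on a sterol or lipid list used here.

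Around the 8 genes, calls fell in late synthesis, uptake, disposal and fatty acid synthesis. In 6 further lists, which are not complete, 10 of 43 tested genes passed, 5 higher and 5 lower in fusion livers, beside 5.99% of all genes higher and 6.81% lower. None of 5 early synthesis genes passed in edgeR (1 at an unadjusted p under 0.05; median log2 fold change -0.21). Mvd, the decarboxylase before Idi1, stood at -0.72 ± 0.32 (SE; adjusted p = 0.161) and Acat2, the thiolase before Hmgcs1, at -0.42 ± 0.22 (adjusted p = 0.225). Both were called by edgeR with the ribosomal protein set as a covariate (Mvd at -0.71, adjusted p = 0.00952; Acat2 at -0.42, adjusted p = 0.0227), beside 32.6% of all genes. None of 8 sterol sensing genes passed either (1 at an unadjusted p under 0.05; median 0.04). Mbtps2, the protease that makes the final cut of the factor, stood at 0.48 ± 0.16 (adjusted p = 0.0718) and Mbtps1 at 0.24 ± 0.11 (adjusted p = 0.188). DESeq2 called Mbtps2 (0.49, adjusted p = 0.0354), beside 18.4% of all genes. In edgeR, Mbtps2 was called with the ribosomal protein share (adjusted p = 0.0154, beside 33.3%) or set (0.0126, beside 32.6%) as a covariate. It was also called with sex as a covariate (0.0430, beside 1284 of 13316 genes), and in none of the 9 fits that left out a liver.

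Of the 9 late synthesis genes, 1 passed (median log2 fold change 0.04), beside 12.8% of all genes. Hsd17b7, a ketosteroid reductase of the steps after lanosterol, rose from 19.1 ± 1.64 CPM (SD, n = 5) to 28.3 ± 7.20 (n = 4), a log2 fold change of 0.58 (adjusted p = 0.0360). The Hsd17b7 call was lost in 5 of the 9 fits that left out a liver (control 1, 3 or 4, fusion 6 or 9) and with sex or the erythroid markers as a covariate, with log2 fold changes from 0.40 to 0.67 when a liver was left out.

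In uptake and transfer, 1 of 5 tested genes passed, beside 12.8% of all genes. Vldlr, a lipoprotein receptor sparse in normal liver, rose from 3.88 ± 1.30 CPM (SD, n = 5) to 16.8 ± 4.07 (n = 4), a log2 fold change of 2.17 (adjusted p = 0.000373). The other 4 lay between -0.42 and 0.05.

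Disposal of cholesterol held 6 of its 8 genes past the test, 3 in each direction, beside 12.8% of all genes in either direction. Abcg5 and Abcg8, the paired transporters that pump sterol into bile, rose from 2.24 ± 0.30 to 13.5 ± 6.06 CPM (2.61, adjusted p = 0.000562) and from 2.16 ± 0.42 to 9.22 ± 4.04 CPM (2.13, adjusted p = 0.0018). Cyp7a1, the rate-limiting enzyme of the classic bile acid route, fell from 29.9 ± 6.50 to 6.17 ± 5.21 CPM (-2.30, adjusted p = 0.00564). Cyp27a1, the mitochondrial enzyme of the alternative route, fell from 50.6 ± 18.4 to 18.4 ± 3.93 CPM (-1.47, adjusted p = 0.00603). The remaining calls, named after their values were seen, were the cholesterol acyltransferases Soat1, higher at 0.59 (adjusted p = 0.0259), and Soat2, lower at -0.76 (adjusted p = 0.0132). Control values of Cyp27a1 were 27.3 and 33.9 CPM in the high-share livers, both female, and 62.8 to 65.4 in the low-share ones, all male, so that set and sex cannot be told apart among controls. With sex as a covariate its log2 fold change was -1.09 (adjusted p = 0.00179). Within the high-share livers alone Cyp27a1 did not pass (-0.58, adjusted p = 0.0701).

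Fatty acid synthesis, the neighbouring programme driven by SREBP factors, had all 8 log2 fold changes below 0 (median -0.58). Of these, 2 were past the test, beside 12.8% of all genes in either direction. Fasn, fatty acid synthase, fell from 142 ± 25.5 to 75.8 ± 16.4 CPM (-0.90, adjusted p = 0.00961), and Pnpla3, a lipid droplet protein under the same control, from 12.9 ± 2.93 to 2.06 ± 0.58 CPM (-2.64, adjusted p = 8.33e-05). Calls among cell type markers fell in 1 part of the lists, beside 12.8% of all genes called. None of the 6 erythroid, 7 neutrophil and myeloid, 4 megakaryocyte, 6 macrophage and 5 endothelial markers tested passed. Neither did those of skeletal muscle and skin, and the sums of all these lists overlapped between genotypes. The lists with a call were as follows. All 8 hepatocyte markers had a log2 fold change below 0 (median -0.43) and Apoa1 passed (-0.89, adjusted p = 0.0382). Their mean log2 level was 13.06 to 13.29 in control and 12.57 to 12.97 in fusion livers, with no overlap. Of the fetal hepatocyte markers, Afp rose (0.86, adjusted p = 0.0178), Dlk1 fell (-0.69, adjusted p = 0.0115) and H19 stood at 0.43 (adjusted p = 0.431). The 3 summed to 45584 to 54927 CPM in control and 75780 to 98974 CPM in fusion livers, while their mean log2 level overlapped between genotypes. Among 6 stellate cell and fibroblast markers, Col1a1 (-0.80, adjusted p = 0.0227) and Col1a2 (-0.57, adjusted p = 0.0467) fell. Of 5 cholangiocyte markers, all with a log2 fold change below 0, 3 passed, and the 5 summed to 49.9 to 73.8 CPM in control and 11.4 to 41.4 in fusion livers. The part of these cell types in the results on the 8 genes and the lists was not tested.

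**Figure D2:**
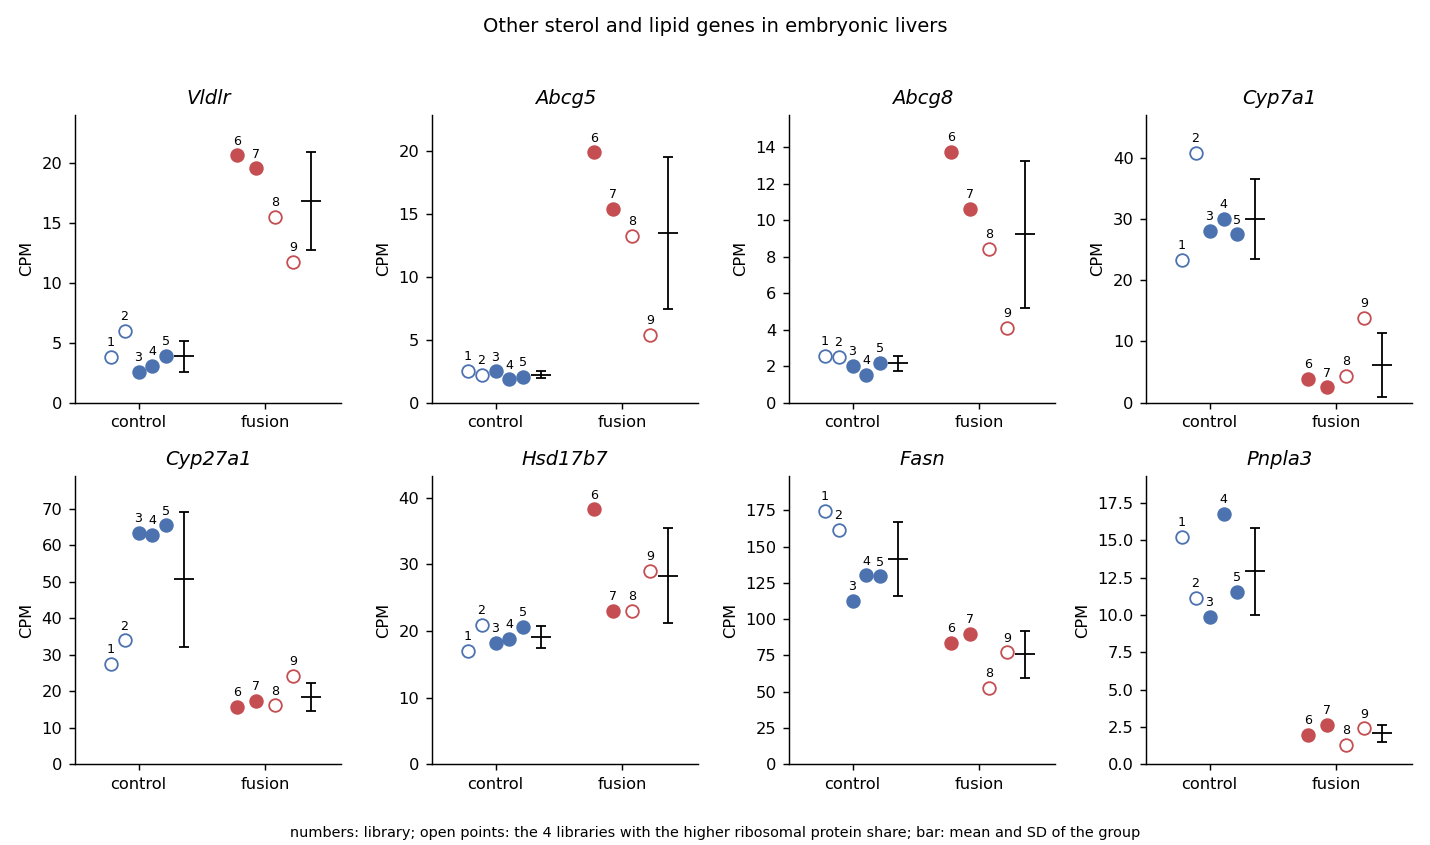
Levels of 8 other sterol and lipid genes in embryonic livers, in CPM after TMM scaling, 1 point per library with its number and the group mean with SD. Open points are the 4 livers with the higher ribosomal protein share. The panels show genes that passed the test, so a separation of the groups follows in part from that choice. Control and fusion livers do not overlap in any panel, nor for 14 of the 43 tested list genes and 16.5% of all genes. Cyp7a1 in fusion 9 (13.9 CPM) stands apart from the other fusion livers (2.49 to 4.37).

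The tumour comparison asks what a course of CDK4/6 inhibition does to FL8 tumours. All 8 cholesterol genes had a mean log2 difference above 0 in palbociclib against vehicle tumours, from 0.54 to 1.11 with a median of 0.71, but none passed the test. None of the 12829 genes tested did (0%; limma on log2(CPM + 1), lowest adjusted p = 0.953). By limma, 586 genes (4.57%) had an unadjusted p under 0.05, of which 478 were higher (3.73%). Idi1, Fdps and Lss, 3 of the 8, were among these. The other tools, run on recovered reads, called 0 (edgeR) and 8 genes (DESeq2), none of them among the 8 cholesterol genes. The median over all genes was 0.14, with 68.8% above 0. After TMM scaling it was 0.01, with 51.2% above 0, and the median of the 8 was then 0.56.

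Hmgcs1 stood at 77.3, 484, 351, 343 and 582 CPM in vehicle tumours 1 to 5 and at 525, 603, 522, 466 and 523 CPM in palbociclib tumours 1 to 5. The treated tumours were close together, whereas vehicle 1 was far below all and vehicle 5 above 4 treated ones. The log2 difference was 0.78 ± 0.41 (SE).

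Idi1 stood at 14.1, 52.4, 60.3, 65.1 and 46.4 CPM in vehicle and 95.4, 95.9, 99.0, 103 and 72.7 CPM in palbociclib tumours. Every treated tumour exceeded every vehicle tumour, and the difference was 1.11 ± 0.34. Fdps stood at 60.2, 215, 176, 111 and 209 CPM in vehicle and 244, 408, 224, 242 and 234 CPM in palbociclib tumours. It too had no overlap, with palbociclib 2 far above the rest, and a difference of 0.91 ± 0.33. A lack of overlap with treated tumours higher held for these 2 of the 8 and for 0.834% of all genes.

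Fdft1 stood at 59.9, 232, 181, 115 and 226 CPM in vehicle and 191, 296, 237, 233 and 188 CPM in palbociclib tumours (0.63 ± 0.33). Vehicle 1, 3 and 4 lay below every treated tumour and vehicle 2 and 5 among them. Sqle stood at 47, 318, 206, 274 and 363 CPM in vehicle and 339.6, 352, 290.3, 289 and 251 CPM in palbociclib tumours (0.60 ± 0.42). Its highest value of all was in vehicle 5. Lss stood at 26.3, 218, 118, 77.6 and 87.6 CPM in vehicle and 146, 254, 122, 205 and 123 CPM in palbociclib tumours (0.91 ± 0.42). Only vehicle 2 reached the treated range.

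Srebf2 stood at 50.3, 262, 186, 171 and 99.1 CPM in vehicle and 209, 218, 152, 237 and 166 CPM in palbociclib tumours (0.54 ± 0.36), the smallest difference of the 8. Insig1 stood at 74.9, 497, 284, 104 and 160.4 CPM in vehicle and 372, 310.2, 201, 282 and 222 CPM in palbociclib tumours (0.60 ± 0.41). For both regulators vehicle 2 was the highest of all 10 tumours and the groups overlapped widely.

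**Figure D3:**
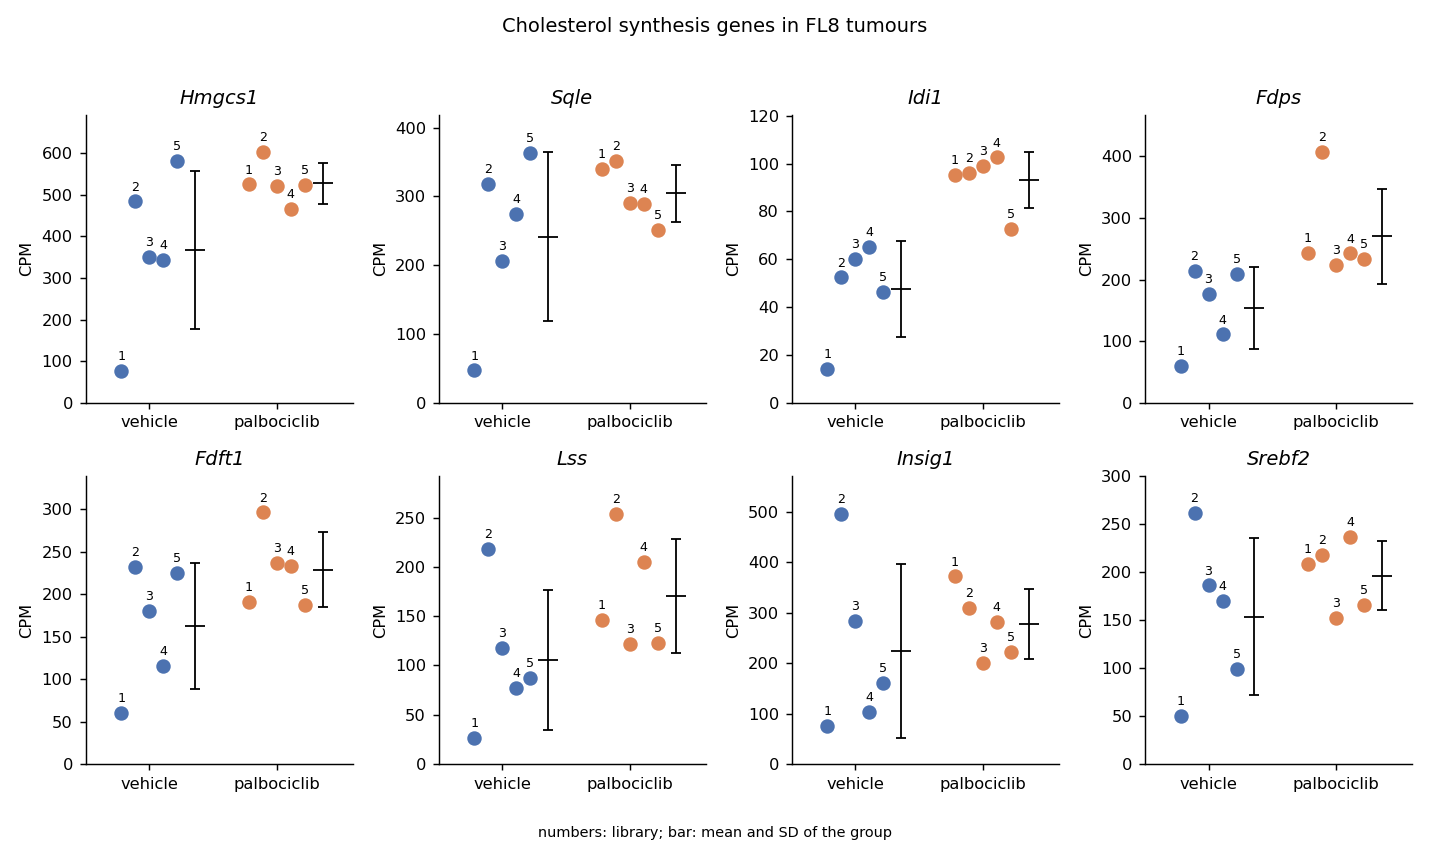
Levels of the 8 genes in FL8 tumours, in CPM as deposited, 1 point per library (5 vehicle, 5 palbociclib) with its number and the group mean with SD. Vehicle 1 is the lowest point in every panel. The groups separate for Idi1 (vehicle up to 65.1, palbociclib from 72.7) and Fdps (up to 215, from 224).

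Vehicle 1 was the lowest of the 10 tumours for 8 of 8 genes. Without it the log2 differences were 0.29 for Hmgcs1, 0.72 for Idi1, 0.61 for Fdps, 0.31 for Fdft1, 0.09 for Sqle, 0.50 for Lss, 0.19 for Srebf2 and 0.30 for Insig1, with a median of 0.30 against 0.03 over all genes. All 8 were still above 0, and the median was less than that with vehicle 1. With CPM recomputed without mitochondrial genes, vehicle 1 still lay below the other vehicle tumours for 7 of the 8. The margin was small for Fdps (113 against 116 CPM), Fdft1 (112 against 120) and Srebf2 (94.2 against 102). For Insig1, vehicle 1 lay above the lowest of the other vehicle tumours (140.3 against 108 CPM). The median of the 8 was then 0.56, with 0.01 over all genes. With quality weights that reduce the influence of discordant libraries, limma-voom gave a median of 0.38 for the 8 and -0.01 over all genes. With vehicle 1 and the shallow vehicle 5 both left out, the median was 0.39 and Srebf2 stood at -0.06. Erythroid markers, haemoglobin genes among them, summed to 1296 to 95967 CPM in vehicle and 1731 to 8422 CPM in palbociclib tumours. Their part in these values was not tested.

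**Figure D4:**
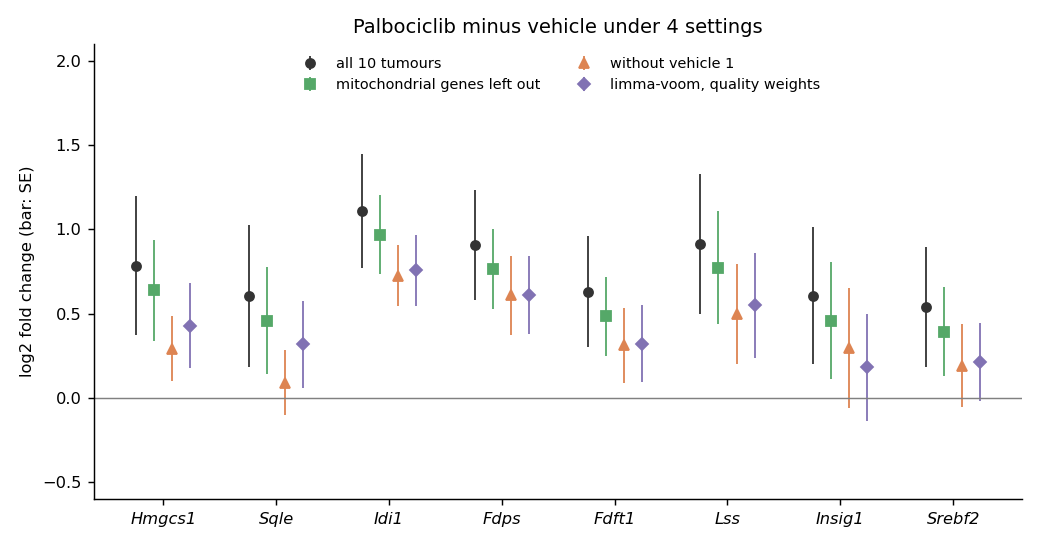
Log2 difference of palbociclib and vehicle tumours for each of the 8 genes (points) with its SE (bars), for all 10 tumours, with mitochondrial genes left out, without vehicle 1, and by limma-voom with quality weights. All points lie above 0, and those without vehicle 1 are lower than those of all 10 tumours, down to 0.09 for Sqle.

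Over the 10 tumours, correlations of log2 level among the 8 genes ran from 0.63 (Idi1 and Insig1) to 0.98 (Hmgcs1 and Sqle). Their median was 0.83 over 28 combinations. Vehicle 1 is a low point in each of them. Levels were CPM as deposited, in which the 46.6% of mitochondrial reads in vehicle 1 lower its values for other genes. Correlations without vehicle 1, and those among all genes, were not computed, so their part was not tested. The genes most like the average of the 8 among 10057 compared were Acat2, Hsd3b3, C8a, Sc5d and Tm7sf2 (Pearson's r 0.98 each over 10 tumours). Acat2, Sc5d and Tm7sf2 are sterol synthesis genes of the lists used here, and Hsd3b3 and C8a are on none of these lists.

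None of the 44 genes of the further lists passed in the tumours, 38 had a difference above 0, and 13 had an unadjusted p under 0.05. Over all genes, 68.8% were above 0 (51.2% after TMM scaling) and 4.57% had such a p. Late synthesis had all 9 genes above 0 (median 0.76). Nsdhl, an enzyme of the steps after lanosterol, stood at 0.98 ± 0.31, and its groups did not overlap. Dhcr7, a reductase of the final steps to cholesterol, stood at 119.6 ± 75.1 CPM (SD, n = 5) in vehicle and 227 ± 51.9 (n = 5) in palbociclib tumours, a log2 difference of 1.19 ± 0.42 (SE), and at 0.73 without vehicle 1. Early synthesis had a median of 0.52, with Acat2 at 0.75 ± 0.31 (0.45 without vehicle 1) and Mvd at 0.59 ± 0.31.

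Sterol sensing (median 0.24) held Mbtps1 at 0.58 ± 0.28 and Insig2 at 0.43 ± 0.35 (0.041 without vehicle 1) as the genes with the smallest p. In uptake and transfer (median 0.35), Lipa, the lysosomal enzyme that frees cholesterol from its esters, stood at 105 ± 8.55 CPM in vehicle and 169 ± 24.0 in palbociclib tumours (0.67 ± 0.21; 0.65 without vehicle 1), and Npc1l1, a sterol transporter, at 0.77 ± 0.47 (0.32 without vehicle 1). In disposal (median 0.18), Abcg1, a cholesterol exporter, stood at -0.74 ± 0.34 (-0.44 without vehicle 1) and Cyp7a1 at 0.58 ± 0.36. Fatty acid synthesis had all 8 above 0 (median 1.07), and those with the smallest p were the elongase Elovl6 at 1.09 ± 0.31 and the acetyl-CoA synthetase Acss2 at 1.45 ± 0.49. Each of these values had an adjusted p of 0.953.

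**Figure D5:**
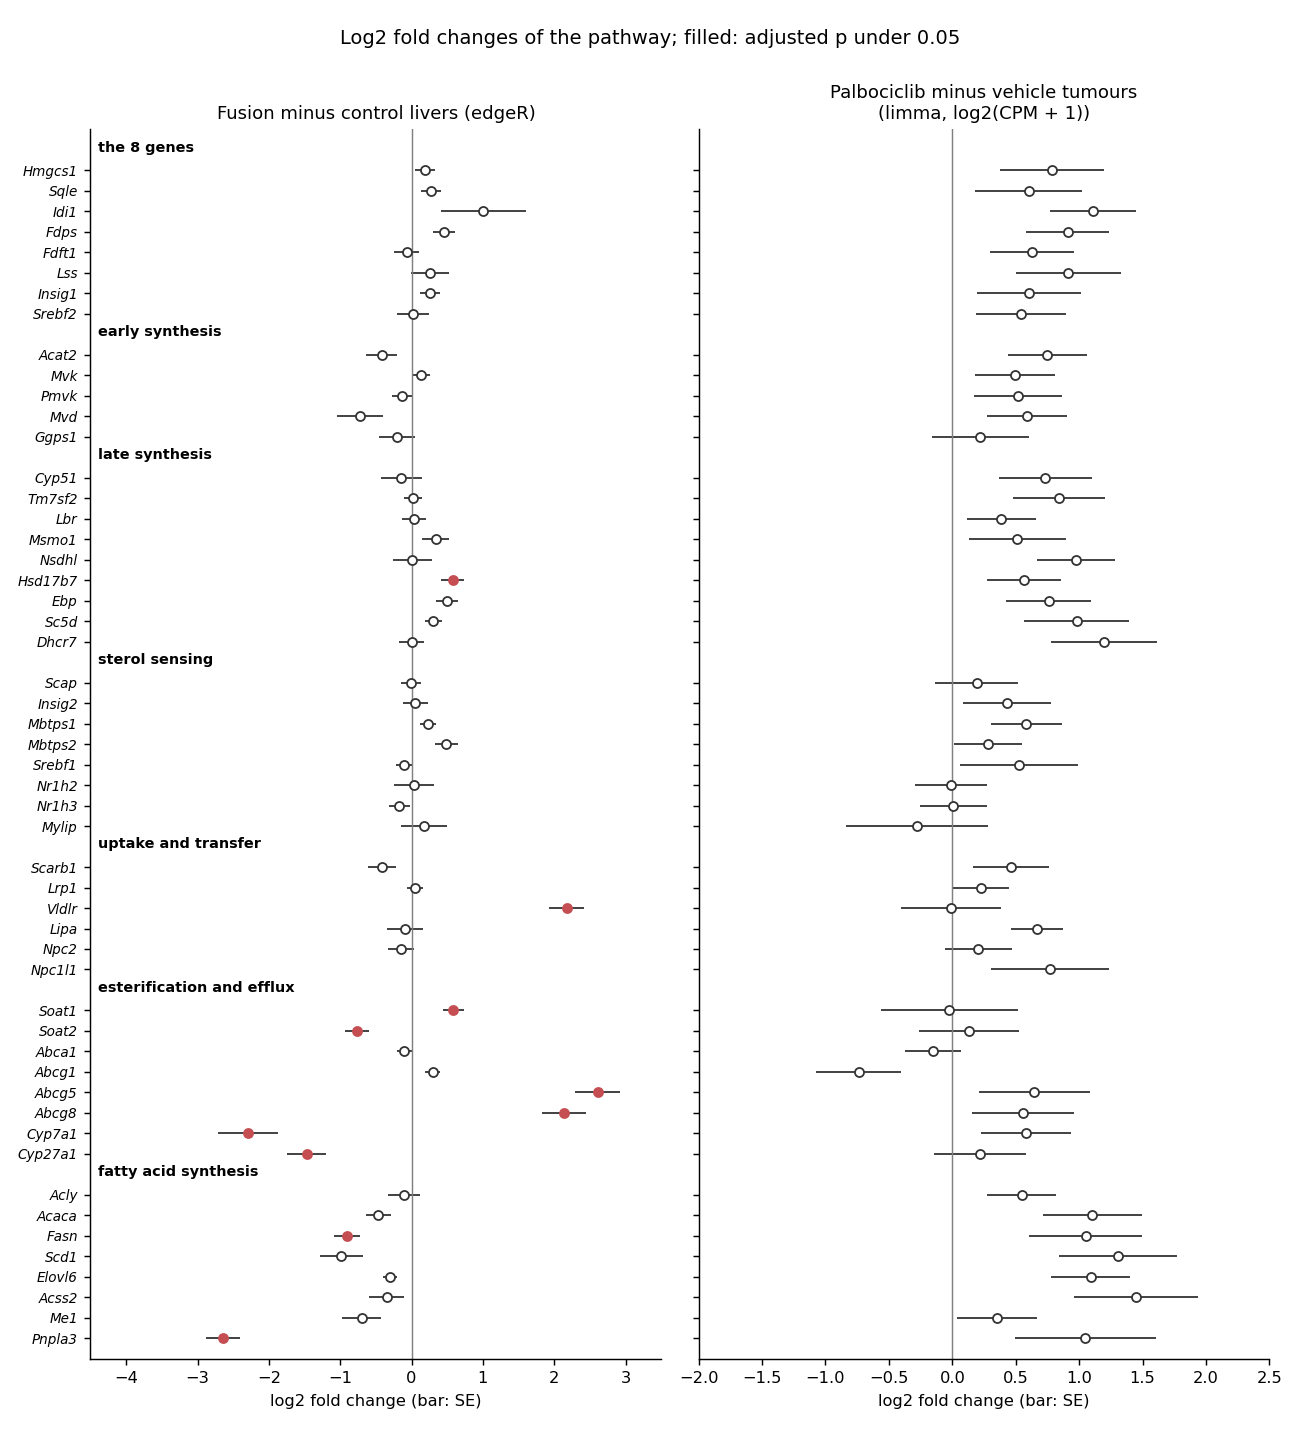
Log2 fold changes (points) with SE (bars) of the 8 genes and the 6 further lists, for fusion against control livers (left) and palbociclib against vehicle tumours (right), with filled red points where the adjusted p is under 0.05. The filled points lie outside the 8 genes and in the livers alone. Npc1l1 has no point for the livers.

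Strand use in counting is not stated, so overlapping genes limit some values. Fdft1 overlaps the protease gene Ctsb on the opposite strand, Hmgcs1, Idi1 and Lss overlap antisense or unverified transcripts, and Fdps and Srebf2 overlap genes on their own strand. Sqle and Insig1 overlap no annotated gene.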

How the data were processed

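For the livers, the authors deposited raw counts of poly-A RNA by gene symbol, per the file headers and labels. The lowest count sum of a gene over the 9 livers was 47. A second block of 9 columns, the same counts times 1 factor per sample, was left aside. For the tumours, the authors deposited CPM (each library summing to 1000000), of which 100% were whole multiples of 1 read within 0.01, so reads were recovered. Per the submitters' processing notes, which give no role or order, tools were STAR 2.5.1b and DESeq2 (embryos) and cutadapt 2.10, HISAT2, featureCounts, DESeq2 and R 4.1.2 (tumours), with build mm10. The annotation and strand setting are not given in the sources used here.

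Embryo counts were tested with edgeR 4.0.16 (R 4.3.3; TMM, filterByExpr, quasi-likelihood) over all genes. The SE given for an edgeR log2 fold change is its absolute value divided by the square root of the test's F statistic. It therefore adds no information beyond that test. Tumours were tested with limma 3.58.1 (trend) on log2(CPM + 1), keeping genes that averaged 1 CPM or more, a scale that understates changes of low genes. Benjamini-Hochberg adjustment covered all genes tested, with a threshold of 0.05. DESeq2 1.42.0, other scalings and filters, covariates and libraries left out were alternatives. Sex was read from Xist (10 CPM). Coordinates and lengths came from GENCODE M21, which gave a symbol to 17469 of 17606 tumour identifiers.

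The 8 genes, the 6 lists and the tests were chosen with earlier results of these data known. Some genes of these pathways are not reported here. From each list, up to 4 genes past the threshold with the largest fold change were named, or the 2 with the smallest p where none passed. The 5 genes most correlated with the average of the 8 (mean of at least 5 CPM) were named too. A floor of 3 counts is 0.0658 to 0.392 CPM in embryos and 0.0695 to 1.01 in tumours, for counting error only. Libraries of a group differed by more than counting noise (lowest chi-square per degree of freedom 13.1), so none was the same library entered again. Each was treated as 1 replicate, although this check cannot show that they came from separate litters or cages. Tumour numbers 1 to 5 did not pair the samples.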

Additional observations from a re-analysis of the deposited data

Results flagged for a closer look

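In the palbociclib tumours, Idi1 in palbociclib 5 (72.7 CPM) lay below the other 4 (95.4 to 103), by a gap large against the range of the group, and still above every vehicle tumour. Fdps in palbociclib 2 (408 CPM) lay above the other 4 (224 to 244). Cyp7a1 in fusion 9 (13.9 CPM) lay above the other 3 fusion livers (2.49 to 4.37) and below every control. Such a gap was looked for in 80 groups of values and found in these 3, where chance at 1 in 20 would give 4.

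The genotype effect of Cyp27a1 differed between the livers with the higher and the lower ribosomal protein share by 1.36 on the log2 scale (edgeR interaction, adjusted p = 0.0353). It was -0.58 in the 4 high-share livers and -1.95 in the 5 low-share livers, where sex and genotype cannot be told apart, and among controls the sets coincide with sex. For Acly, the enzyme that makes cytosolic acetyl-CoA for both sterol and fatty acid synthesis, the difference was -1.14 (adjusted p = 0.0322), from -0.70 in the high-share livers (adjusted p = 0.00852) and 0.43 in the low-share livers (adjusted p = 0.0357). None of the 8 cholesterol genes showed such a difference past the threshold.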

How the results depend on the processing

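The count of the 8 genes called in fusion livers was 0 in the main test and 0 in every fit that left out 1 liver (range 0 to 0). It was 1 with DESeq2, 2 with the ribosomal protein share as a covariate, 2 with the ribosomal protein set as a covariate, and 3 within the 5 low-share livers. The calls in the 6 lists, 10 in the main test, were 16 with DESeq2, 20 with the share and 21 with the set as a covariate, 16 within the 4 high-share livers, and 8 to 11 with a liver left out. Over all genes, 1704 calls became 4432 with the share, 4345 with the set, 1284 with sex as a covariate, and 969 without control 3. The log2 fold change of Lss turned to -0.11 within the 4 high-share livers, and that of Srebf2 to -0.055 with the share, -0.0096 with sex as a covariate and -0.41 within the 4 high-share livers. With a liver left out, Fdft1 ranged from -0.19 to 0.032, Lss from -0.027 to 0.44 and Srebf2 from -0.19 to 0.20. In the tumours no count changed (0 for the 8 genes and 0 for the lists, 0 to 0 with a tumour left out). With vehicle 1 and vehicle 5 both left out, Srebf2 turned to -0.065 and Npc1l1 to -0.024. The cause of these changes was not tested. The fits within or across ribosomal protein sets, and the one without vehicle 1 and 5, were chosen after seeing the data.

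With the label number as a replicate block, 0 of the 8 genes and 0 list genes were called in the tumours. Same-numbered tumours did not deviate together (correlations -0.25, -0.32, -0.03, -0.01 and 0.00), and none correlated best with its own number. No paired analysis was possible because control and fusion livers share no number. Idi1 rests on as few as 16 counts in a liver, and vehicle 5 on 2.96 M reads.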
